A study of Mus musculus with 5 samples.

Results

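Macrophage genes were examined across 5 mouse microarrays, 1 per group. The list held 38 genes of macrophages and related white blood cells, chosen by name with earlier results of these data known. Shares of the list set beside those of all genes are therefore descriptions and not tests. Of these, 37 were measured by a probe set that names 1 gene, out of 19938 genes measured in that way, and Slc11a1, a metal transporter of the phagosome, was not analysed here. Each of the 37 had a single such probe set, and dim genes were kept.

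The arrays came from embryonic stem cells (ESCs), in the groups 2i ESCs and S ESCs, and from mouse embryonic fibroblasts (MEFs), in the groups 4n 2i MEFs, 2n 2i MEFs and also control MEFs. All 5 samples carried an F1 background of the strains 129X1/SvJ and MSM/Ms, and the labels give no age, passage or agent. In common usage 2i is a culture medium with inhibitors of MEK and GSK3, while S, 2n and 4n are used here only as names. Sample titles carry a number of unstated meaning, 15 and 36 in the titles of the 2i and S ESCs, and 2, 15 and 4 in those of the 4n, 2n and control MEFs. A second number, 3 for the 4n and 1 for the 2n 2i MEFs, is not explained either, so what separates the groups and what separates these numbers cannot be told apart. The labels do not say whether a MEF sample came from 1 embryo or from several, or whether other cells were removed from it.

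Macrophages are phagocytes of the blood lineage that settle in nearly all tissues from early embryonic life onward, and cultures of dissociated embryos can carry them. Their identity rests on the transcription factor PU.1 (gene Spi1) and on the receptor CSF1R, through which the growth factors CSF1 and IL-34 keep them alive. Fc receptors and TREM2 signal through small adaptors with an activation motif (ITAM), and engulfed material is broken down in lysosomes. Fibroblasts are themselves a source of CSF1.

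Macrophage genes were bright on the 4n 2i MEF array and dim on the other arrays. Intensity above an array's median, taken over all its probe sets (170.2 to 192.0 units), was reached by 30 of the 37 genes on the 4n 2i MEF array. The corresponding counts were 4 on the 2i ESC array, 5 on the S ESC array, 4 on the 2n 2i MEF array and 7 on the control MEF array. Of all genes, 54.6% to 54.8% lay above the median on each array. The 37 genes had a median of 537.8 intensity units on the 4n 2i MEF array, 89.5 on the 2n 2i MEF array and 97.1 on the control MEF array, and of 77.3 on the 2i ESC array and 86.0 on the S ESC array. Their highest value among the 5 arrays fell on the 4n 2i MEF array for 33 genes, against 14.2% of all genes. The exceptions were Laptm5, highest on the 2i ESC array, and Fcgr2b, Itgam and Coro1a, highest on the S ESC array.

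**Figure D1:**
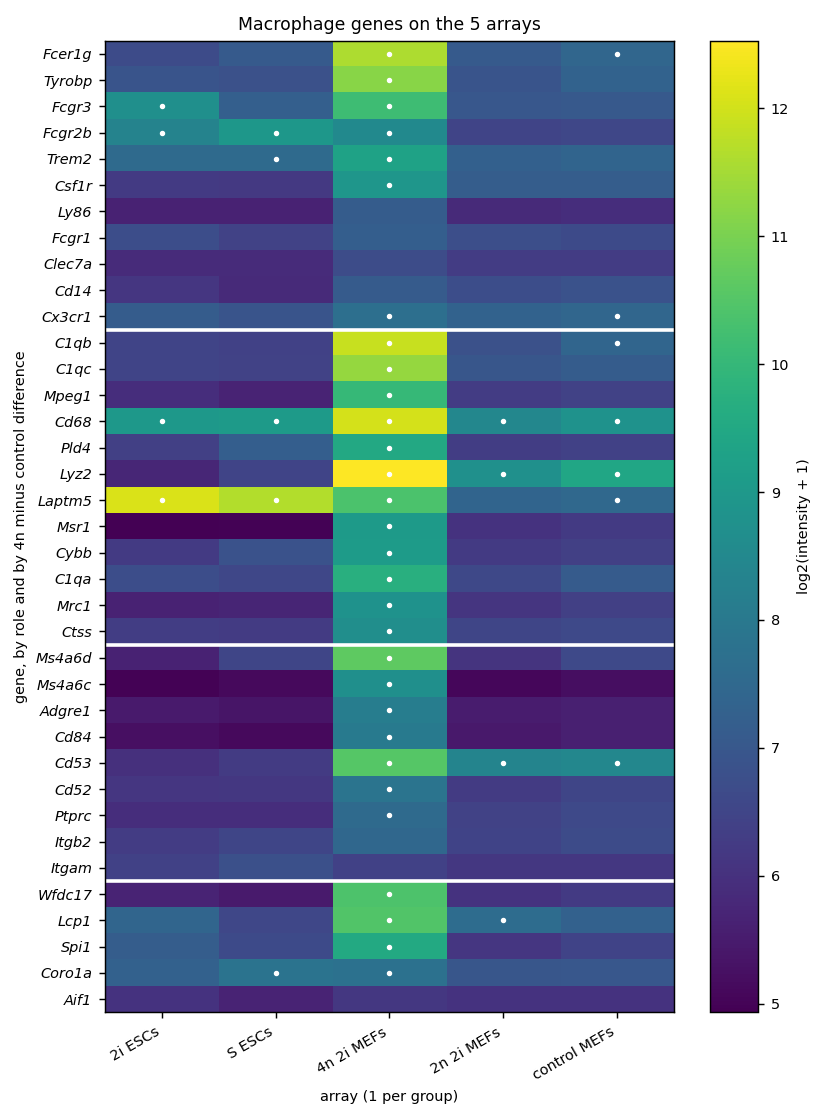
Colour gives log2(intensity + 1) of the 37 measured macrophage genes (rows, in 4 role groups separated by white lines) on the 5 arrays (columns, 1 array per group). A white dot marks a value above that array's median, which 30 genes reached on the 4n 2i MEF array, 4 on the 2n 2i MEF array and 7 on the control MEF array.

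Pairs of single arrays have no replicate, so their differences carry no test, and precision is limited by the number of arrays. Genes are called here when they differed at least 2-fold with the brighter array at or above its median. Differences are on the scale of log2(intensity + 1). On the 4n 2i MEF array 27 of the 37 genes were called higher than on the control MEF array and none lower. Of the 11188 genes whose brighter array reached its median, 5.06% were called higher and 3.24% lower, and 30 of the 37 reached it. With the floor at the 75th percentile of each array in place of the median, the count of 27 became 15. Against the 2n 2i MEF array 28 were called higher and none lower, where 3.28% of 11137 genes were called higher and 2.25% lower, and with the higher floor the count of 28 also became 15. The additional gene was Ptprc, encoding CD45 of all nucleated blood cells, at 187.6 intensity units on the 4n array against 85.2 (2n) and 97.1 (control), that is 2.19-fold and 1.92-fold. Both comparisons share the 4n array, so they are not independent. In all, 27 genes were called higher than on each of the other MEF arrays, where 2.92% of 11090 genes were. All 37 were higher by some amount against either array, as were 27.4% of all genes against the control array and 28.6% against the 2n array. The median difference of the 37 genes was 2.55 (5.85-fold) against the control array and 2.68 (6.39-fold) against the 2n array, with a median of 0.00 over all genes in both.

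Of the 27 genes, 20 lay under the median on both the 2n and the control MEF array. Part of such a dim value is background, so the folds of these genes, and of C1qb and Fcer1g, which were under or within a few units of the medians there, are sizes on this scale and not ratios of RNA. In RNA from a whole culture, more cells of a type and more RNA per cell cannot be told apart. How far the 4n 2i MEF culture held macrophages was not tested by any other measure.

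**Figure D2:**
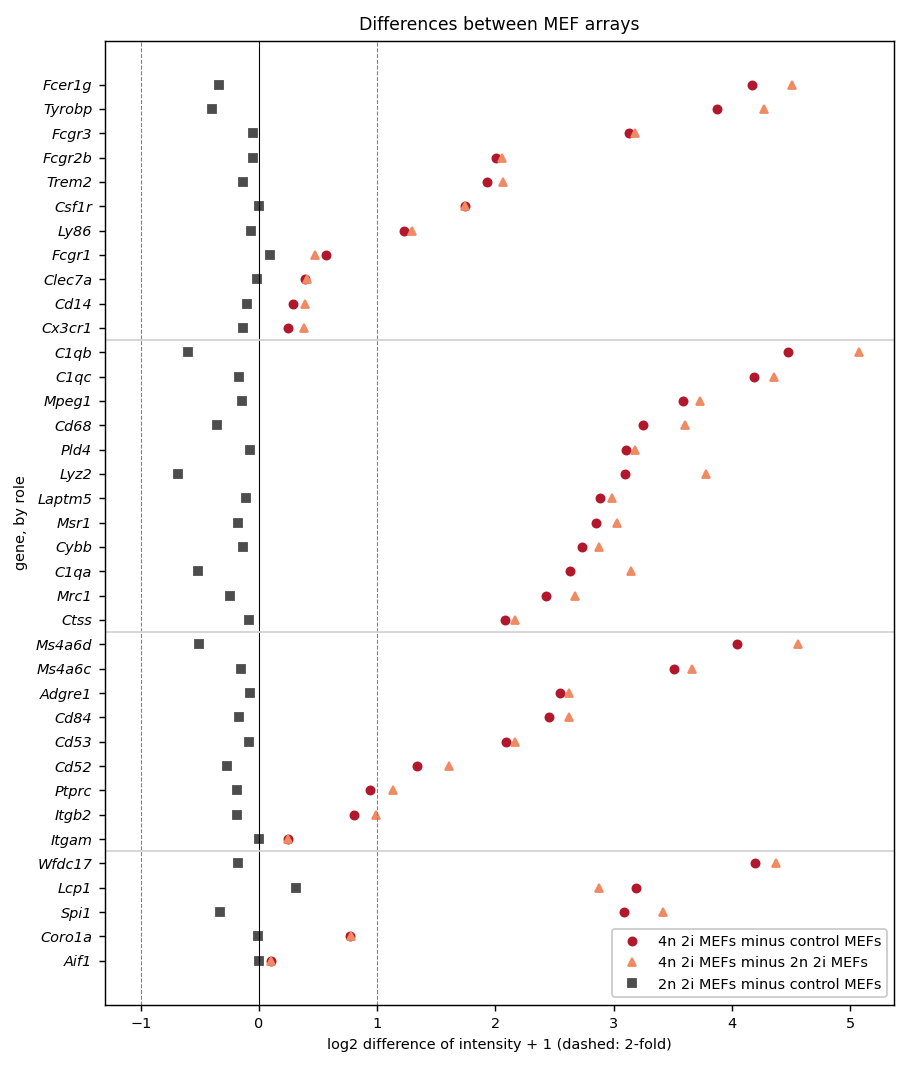
Differences in log2(intensity + 1) of the 37 macrophage genes (rows, by role) between the 3 pairs of MEF arrays, with dashed lines at 2-fold. Circles and triangles, which share the 4n 2i MEF array, run from 0.10 to 5.07, while the squares of the 2n 2i MEF array minus the control MEF array lie between -0.68 and 0.31.

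Of 11 receptor and adaptor genes, 6 were called higher on the 4n array against each of the other MEF arrays, with the largest differences in the ITAM adaptors. Fcer1g (Entrez Gene 14127), the gamma chain shared by activating Fc receptors, had 3108 intensity units on the 4n 2i MEF array, against 135.7 on the 2n 2i MEF array and 171.6 on the control MEF array. It was 22.7-fold above the 2n array, and its log2 differences were 4.51 and 4.17. Tyrobp (22177), which encodes the adaptor DAP12, had 2330 units on the 4n array, against 119.6 (2n) and 158.0 (control), that is 19.3-fold and 14.7-fold. Both adaptors were thus bright on the 4n array and near or under the median on the other MEF arrays.

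Another 4 receptors of the group were called as well. The activating IgG receptor Fcgr3 had 1160 units on the 4n array, against 126.9 (2n) and 131.8 (control). The inhibitory IgG receptor Fcgr2b had 374.5 against 89.5 and 92.6, and the lipid receptor Trem2, which signals through DAP12, had 636.2 against 151.4 and 166.8. Csf1r (12978), the survival receptor, had 481.2 units on the 4n array and 142.7 on both other MEF arrays, a 3.36-fold difference. The value of Csf1r was identical on the 2n and control arrays, as it was for Itgam and Aif1. Identical values stood in 45.4% of all probe sets on that pair of arrays, so an exact difference of 0 was common there.

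The other receptors of the group were not called. Ly86, which encodes MD-1, the partner of the B cell and macrophage receptor CD180, had 139.9 units on the 4n array against 56.4 (2n) and 59.2 (control). That was 2.45-fold and 2.34-fold, but under the array median. Fcgr1, the high-affinity IgG receptor, had 147.8 against 106.2 and 99.4. The fractalkine receptor Cx3cr1 had 206.5 against 158.2 and 174.0, the endotoxin co-receptor Cd14 138.7 against 105.7 and 113.6, and the beta-glucan receptor Clec7a 101.9 against 76.4 and 77.5. These 4 stayed within 1.48-fold.

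Genes of opsonisation, scavenging and the lysosome were the most uniform of the 4 groups, with 12 of 12 measured genes called higher on the 4n array against both other MEF arrays. Their differences from the control array ran from 2.08 to 4.47. The chains of C1q, the recognition molecule of classical complement, are made by macrophages from 3 neighbouring genes on chromosome 4. C1qb (12260) had 3820 intensity units on the 4n array, against 112.7 (2n) and 170.9 (control). These were 33.6-fold and 22.2-fold on this scale, against values under the 2n median and near the control median. C1qc had 2555 units against 124.0 and 139.2, and C1qa had 850.4 against 95.3 and 136.5. All 3 chains were thus high on the 4n array alone among the MEF arrays.

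Lyz2 (17105), the lysozyme gene of macrophages and granulocytes, had 5913 units on the 4n array, against 429.0 (2n) and 689.0 (control), that is 13.8-fold and 8.57-fold. Cd68, a lysosomal glycoprotein, had 4217 units against 346.6 and 443.9 (12.1-fold and 9.48-fold). Both lay above the median on every MEF array. Mpeg1, a pore-forming protein of phagocytes, had 1039 units against 77.3 and 85.7. The scavenger receptor gene Msr1 had 537.8 against 65.1 and 73.5, and the mannose receptor gene Mrc1 had 442.6 against 68.4 and 81.4. Cybb, the catalytic subunit of the phagocyte NADPH oxidase, had 550.9 against 74.3 and 81.9. Pld4, a lysosomal exonuclease, had 724.8 against 79.2 and 83.4, the protease gene Ctss 409.6 against 90.5 and 96.0, and the lysosomal membrane gene Laptm5 1329 against 166.6 and 179.4. Every gene of this group was at least 4.23-fold higher on the 4n array in both comparisons.

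Surface genes were split. Of 9, 6 were called higher on the 4n array against both other MEF arrays, and Ptprc only against the 2n array. Ms4a6d had 1597 units on the 4n array, against 66.9 (2n) and 95.8 (control), and Ms4a6c had 422.6 against 32.4 and 36.1. Both belong to a family of membrane proteins with near copies in one gene cluster, and signal from related transcripts on these probe sets was not tested. Adgre1 (13733), which encodes F4/80, the marker most used for mouse macrophages, had 281.7 against 44.9 and 47.3 (6.16-fold and 5.85-fold). The SLAM family receptor Cd84 had 265.8 against 42.4 and 47.8, the tetraspanin Cd53 1480 against 328.3 and 347.6, and the small surface glycoprotein Cd52 230.9 against 75.04 and 90.6. The integrin chains that form CD11b and CD18 were not called. Itgam had 83.4 units on the 4n array and 70.2 on each of the other MEF arrays, and Itgb2 had 175.0 against 87.6 and 100.1. Itgam was thus within 1.18-fold and under the median on every array. A further 3 probe sets name Itgam together with the ribosomal protein gene Rpl35 and had 11535 to 11647 units on the 4n array, 1.06-fold to 1.09-fold the control array. They were not counted for Itgam.

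Of the 5 genes for intracellular or secreted proteins, 3 were called higher. Spi1 (20375), the PU.1 gene, had 751.1 units on the 4n array, against 69.2 (2n) and 87.4 (control), that is 10.7-fold and 8.51-fold. Wfdc17, a small secreted protein of macrophages, had 1368 against 64.9 and 73.7. The actin-bundling gene Lcp1 had 1429 against 194.2 and 156.2 (7.33-fold and 9.09-fold). Coro1a, an actin regulator of white blood cells, had 215.8 against 125.2 and 125.9, which was within 2-fold. Aif1, encoding the microglia and macrophage marker IBA1, had 70.5 units on the 4n array and 65.6 on each of the other MEF arrays. Aif1, Itgam, Itgb2, Cd14, Clec7a, Fcgr1 and Ly86 lay under the median on all 5 arrays. Macrophage markers in common use were thus found both among the called genes and among the dim ones.

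Between 2n 2i MEFs and control MEFs the 37 genes differed by at most 1.60-fold. Only 8 of them reached the median on the brighter array and could be called, and none of the 8 was called, where 1.42% of 11048 genes that reached it were called higher on the 2n array and 0.398% lower. A count of 0 of 8 lies near those shares. By any amount 32 genes were lower on the 2n array, 2 were higher and 3 were identical, while 28.8% of all genes were lower and 28.2% higher. The median difference was -0.14, against 0.00 over all genes. The largest were Lyz2, with 429.0 units on the 2n array against 689.0 on the control array (-0.68), C1qb with 112.7 against 170.9 (-0.60), and C1qa with 95.3 against 136.5 (-0.51). The genes in excess on the 2n array were Lcp1 (0.31) and Fcgr1 (0.09). These small differences have no replicate behind them.

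Promoters of the listed genes were set beside these values because PU.1 binds purine-rich sites with the core GAGGAA. RefSeq promoter sequences (assembly GRCm38.p6) were available for 28 of the 38 genes. In the 250 bases before the start, GAGGAA or its complement TTCCTC was found in 16 of the 28 (57.1%), and in 25.9% of 27025 genes. The longer forms AGGAAGT, which overlaps the first, and GAGGAAGT, on either strand, were found in 7 (25.0%) and 1 (3.57%) of the 28, against 8.80% and 2.79% of all genes. Measured genes with GAGGAA were called higher on the 4n array than on both other MEF arrays in 10 of 15 cases, and those without in 9 of 12. Their median differences from the control array were 2.09 and 2.92. A match is a description of these letters and was not tested as a binding site.

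The 100 bases before the start are shown for 6 genes that were called higher on the 4n array and for 2 that were not, Itgam and Aif1, which hold the same letters. Capitals mark GAGGAA or TTCCTC, 5′ to 3′ on the strand of the gene.
C1qb, chr4:136886201-136886300, minus strand: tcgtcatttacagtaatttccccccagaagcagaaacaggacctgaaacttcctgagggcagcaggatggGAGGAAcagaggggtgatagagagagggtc
Trem2, chr17:48346301-48346400, plus strand: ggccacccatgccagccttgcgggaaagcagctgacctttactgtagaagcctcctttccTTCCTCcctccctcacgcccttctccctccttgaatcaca
Mrc1, chr2:14229314-14229413, plus strand: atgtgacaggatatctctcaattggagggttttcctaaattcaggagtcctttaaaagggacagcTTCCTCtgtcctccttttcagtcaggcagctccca
Cd53, chr3:106790150-106790249, minus strand: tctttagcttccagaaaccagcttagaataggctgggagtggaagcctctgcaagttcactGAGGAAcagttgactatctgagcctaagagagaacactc
Laptm5, chr4:130913216-130913315, plus strand: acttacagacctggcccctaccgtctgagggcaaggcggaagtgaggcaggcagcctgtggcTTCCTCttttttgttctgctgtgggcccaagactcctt
Wfdc17, chr11:83703956-83704055, plus strand: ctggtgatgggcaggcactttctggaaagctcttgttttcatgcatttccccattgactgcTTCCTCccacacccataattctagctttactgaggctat
Itgam, chr7:128062540-128062639, plus strand: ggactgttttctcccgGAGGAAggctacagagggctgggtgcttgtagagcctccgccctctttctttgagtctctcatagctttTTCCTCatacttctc
Aif1, chr17:35176053-35176152, minus strand: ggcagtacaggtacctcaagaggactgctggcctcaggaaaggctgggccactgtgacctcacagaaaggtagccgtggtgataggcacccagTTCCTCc
The match in C1qb begins 30 bases before the start, and those in Mrc1, Laptm5, Cd53, Wfdc17 and Trem2 begin 35 to 40 bases before it. In Itgam matches begin 84 and 15 bases before the start and in Aif1 7 bases before it. Other listed genes with a match in these 100 bases are not shown. In Fcgr3, which was called higher, the match begins 6 bases before the start. In Fcgr1 and Clec7a, which were not called, it begins 55 and 96 bases before the start.

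Other genes of the macrophage programme were partly higher on the 4n 2i MEF array. Of 36 measured receptor and enzyme genes of macrophages outside the list, 17 reached the median on the brighter array. Of these, 13 were called higher than on the control array and 1 lower, where 5.06% and 3.24% of genes that reached the median were. The median difference of the 36 was 0.69. Against the 2n array 14 were called higher and none lower, where 3.28% and 2.25% of genes that reached the median were. Those called against the control array included Ms4a7 (7.27-fold), the RNA sensor Tlr13 (6.50), the cytoskeletal Plek (6.14) and the complement receptor C3ar1 (6.10). C3ar1 had 1249 units on the 4n array, against 167.6 (2n) and 203.9 (control). The gene called lower was Pla2g7, a lipase that inactivates platelet-activating factor, with 511.1 units on the 4n array against 977.6 (2n) and 1152 (control), that is 1.91-fold and 2.25-fold, called in the second alone. Chosen after their values were seen, the macrophage markers Cd163, Marco and Lyve1 had the same value on all 3 MEF arrays, at 54.0, 87.6 and 93.9 units.

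Of 23 signalling, surface and cytoskeletal genes of white blood cells, 12 reached the median, with a median difference of 0.51 over the 23. Of the 12, 6 were called higher than on the control array and none lower, where 5.06% and 3.24% of genes that reached the median were. The counts against the 2n array were the same, where 3.28% and 2.25% were. Against the control array the inhibitory receptor gene Lilrb4a (8.51-fold), the actin regulator gene Nckap1l (7.70), the GTPase gene Rac2 (3.23) and the adaptor gene Lcp2 (2.53) led the 6. Of 14 myeloid transcription factor genes, 10 reached the median and 2 were called higher than on the control array, against 1 in the comparison with the 2n array. Of all genes that reached the median, 5.06% and 3.28% were called higher in these comparisons. Maf had 2000 units on the 4n array, against 770.9 (2n) and 528.9 (control), that is 2.59-fold and 3.78-fold. Cebpa had 464.7 against 251.7 and 169.6, that is 1.84-fold, not called, and 2.73-fold. The median of that list was 0.00 against the control array. All 18 lysosomal and phagocytic genes reached the median and 2 were called higher than on the control array. That was too few to set this list apart from all genes that reached the median, of which 5.06% were. The 2 were the protease gene Lgmn (2.18-fold against 2n and 2.19-fold against control) and the engulfment receptor gene Mertk. Mertk had 438.1 units on the 4n array, against 266.1 (2n), within 2-fold, and 151.0 (control), 2.89-fold. The macrophage growth factor Csf1 was called lower, with 2723 units on the 4n array, against 5141 (2n) and 6513 (control), that is 1.89-fold, not called, and 2.39-fold lower. Csf1 was the only call against the control array among 8 growth factor and receptor genes of this axis. Of the 8, 2 reached the median, and 3.24% of all genes that reached it were called lower. Against the 2n array the receptor gene Csf2ra alone was called, with 1379 units on the 4n array against 613.3 (2.25-fold higher). In that comparison 2 of the 8 reached the median, and 3.28% of all genes that reached it were called higher.

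Markers of other white blood cells, and genes of antigen presentation, were mostly dim on the MEF arrays. Of 13 neutrophil, 8 mast cell, 6 B cell, 12 T and NK cell and 6 antigen presentation (MHC class II) genes, the neutrophil gene Mmp9 and the class II gene H2-DMa alone reached the median in the comparison of the 4n and control arrays. Neither was called, and the other genes of these lists lay under the floor and could not be. Summed over its genes, the T and NK cell list had 899.2 units (4n) and 900.8 (control), and the neutrophil list 1171 and 1182. The B cell list had 519.4 and 457.5, the mast cell list 606.9 and 565.9, and the class II list 761.0 and 938.8. The sum over the 37 macrophage genes was 39771 units on the 4n array, against 4349 (2n) and 5089 (control). Another 3 lists did include called genes. Of all genes that reached the median, 5.06% were called higher than on the control array and 3.24% lower. Against the 2n array these shares were 3.28% and 2.25%. Of 8 erythroid and platelet genes 2 reached the median, and the chemokine Pf4 was called higher, with 297.7 units on the 4n array against 104.4 (2n) and 109.2 (control). The platelet chemokine Ppbp was called lower, with 238.9 units on the 4n array against 2075 (2n) and 1270 (control). Of 8 blood progenitor genes 3 reached the median and Lmo2 was called higher than on the control array (2.08-fold) but not against the 2n array (1.98-fold). Of 10 endothelial genes 2 reached it in each comparison and Erg was called higher against both (2.65-fold and 2.78-fold). The endothelial gene Emcn was called lower than on the 2n array (2.02-fold), with 178.6 units on the 4n array against 362.1 (2n) and 58.9 (control). Emcn was also called higher in 2n 2i MEFs than in control MEFs (6.06-fold).

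All 15 fibroblast markers lay above the median on the 4n 2i MEF array, with 15 (2n) and 14 (control) on the other MEF arrays. Their sum was 118018 units on the 4n array, against 106729 and 101643. On the 4n array 3 of the 15 were called higher than on the control array, where 5.06% of genes that reached the median were. Against the 2n array 2 were called higher, where 3.28% of such genes were. The protease gene Fap had 878.4 units on the 4n array against 247.2 (2n) and 80.9 (control), and was also called higher in 2n 2i MEFs than in control MEFs (3.03-fold). The proteoglycan gene Lum was 4.43-fold higher than on the 2n array and 7.56-fold higher than on the control array, and the collagen gene Col3a1 1.43-fold, not called, and 2.63-fold. Of 12 ES cell markers 1 lay above the median on each MEF array and all 12 on each ESC array. The part of any of these lists in the macrophage difference was not tested.

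**Figure D3:**
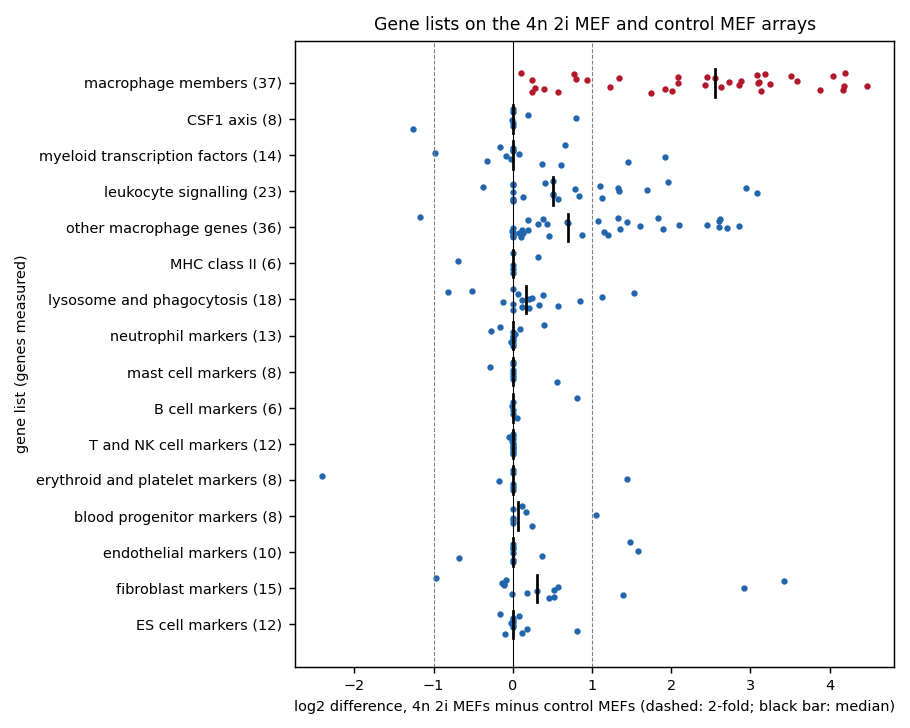
Each point is a gene's difference in log2(intensity + 1), 4n 2i MEFs minus control MEFs, for the 37 macrophage genes (red) and 15 other lists (blue), with black bars at list medians and dashed lines at 2-fold. The macrophage median is 2.55, the other macrophage genes have 0.69, and the neutrophil, mast, B, T and NK cell lists have 0.00.

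Few macrophage genes lay above the median on the ESC arrays, namely Laptm5, Cd68, Fcgr2b and Fcgr3 on the 2i ESC array and Laptm5, Cd68, Fcgr2b, Coro1a and Trem2 on the S ESC array. Laptm5 (16792), a lysosomal membrane gene known from blood cells, had 4350 intensity units on the 2i ESC array and 3240 on the S ESC array, against 1329, 166.6 and 179.4 on the 4n, 2n and control MEF arrays. It was higher on both ESC arrays than on any MEF array. Fcgr2b had 320.6 and 497.1 units on the 2i and S ESC arrays, against 374.5, 89.5 and 92.6 on the 4n, 2n and control MEF arrays. Fcgr3 had 421.8 and 148.2 units on the 2i and S ESC arrays, against 1160, 126.9 and 131.8 on the MEF arrays in the same order. Cd68 had 505.3 and 537.0 on the ESC arrays, against 4217, 346.6 and 443.9, and was the only macrophage gene above the median on all 5 arrays.

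For ESCs (2 arrays) against MEFs (3 arrays), limma was run on all 19938 genes without a filter on low values, calling genes that differed at least 2-fold with an adjusted p under 0.05. None of the 37 macrophage genes was called higher in ESCs and 1 was called lower, where 10.6% of all genes were called higher and 9.91% lower. Of the 37, 6 had an unadjusted p under 0.05 in limma, as did 11975 of the 19938 genes. The gene called lower was the tetraspanin Cd53, at 6.12 ± 0.19 in ESCs (log2, SD, n = 2) against 9.11 ± 1.23 in MEFs (SD, n = 3). It was 7.94-fold lower in ESCs, with a limma adjusted p = 0.0403 that ran from 0.00429 to 0.188 over the alternatives. The call was lost on leaving out any 1 array other than the 4n 2i MEF array. Laptm5 was 11.0-fold higher, at 11.88 ± 0.30 in ESCs (SD, n = 2) against 8.42 ± 1.70 in MEFs (SD, n = 3), and had a limma adjusted p = 0.0624 (0.00349 to 0.247 over the alternatives). Lyz2 was 17.4-fold lower on this scale, at 6.11 ± 0.51 in ESCs (SD, n = 2) against 10.24 ± 2.02 in MEFs (SD, n = 3), and had a limma adjusted p = 0.0629 (0.0167 to 0.255 over the alternatives). The MEF spread of these genes held the distance of the 4n array from the other MEF arrays, so it is a spread between conditions and not between replicates.

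Without the 4n 2i MEF array, 2 macrophage genes were called higher in ESCs and 3 lower, where 9.75% of all genes were called higher and 10.4% lower. Laptm5 was 21.6-fold higher, with an adjusted p = 0.00349 in limma, and Fcgr2b 4.35-fold higher, with an adjusted p = 0.0139 in limma. Lower in ESCs were Lyz2 (7.86-fold), Cd53 (4.86-fold) and Msr1 (2.26-fold), with adjusted p values in limma between 0.00429 and 0.0167. Msr1 had 29.5 and 30.6 units on the 2i and S ESC arrays, against 65.1 and 73.5 on the 2n and control MEF arrays, all under the array medians. Across the 6 pairings of ESC with MEF arrays, no probe set held the same deposited value on both, unlike the MEF arrays among themselves. With all arrays kept, leaving out genes identical on 2 or more MEF arrays gave 1 macrophage gene higher in ESCs and 2 lower. The counts with all genes were 0 and 1. Beyond that, the effect of identical values on this contrast was not tested.

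**Figure D4:**
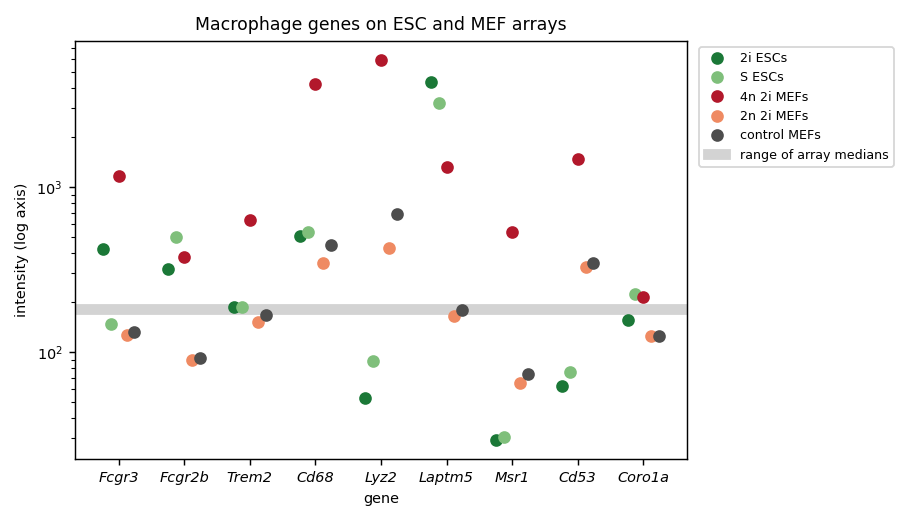
Intensity (log axis) of 9 macrophage genes on the 2 ESC arrays (green) and the 3 MEF arrays (red, orange and grey), 1 point per array, with the range of the array medians (170.2 to 192.0) shaded. Laptm5 is highest on the ESC arrays at 4350 and 3240 units, while Lyz2, Cd53 and Msr1 are lowest there.

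Between the 2i ESC and S ESC arrays the macrophage genes were split evenly. Of the 37, 20 were higher on the 2i array and 17 lower, with a median difference of 0.01, against 0.03 over all genes. The gene called was Fcgr3, with 421.8 units on the 2i ESC array against 148.2 on the S ESC array (2.83-fold), where 2.73% of 11426 genes were called higher and 2.43% lower. Only 5 of the 37 genes reached the median on the brighter ESC array. Among the other lists, the macrophage factor gene Spic had 1150 units on the 2i ESC array against 238.2 on the S ESC array (4.81-fold). It was 1 of 2 myeloid transcription factor genes called higher, of 5 that reached the median. Of 5 other macrophage genes that reached it, 3 were called higher, led by Gpnmb (4.00-fold) and the phosphatase gene Acp5 (3.07-fold). Of 12 signalling genes 4 were called higher, led by Rac2 (3.02-fold). Of 3 class II genes 2 were called higher, H2-Eb1 (3.04-fold) and H2-Ab1 (2.80-fold). None of these 4 lists held a gene called lower. Of 18 lysosomal and phagocytic genes 2 were called higher and 1 lower. Calls in the remaining lists are not given here.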

How the data were processed

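Total RNA was column-purified, fragmented, biotinylated and hybridised to whole-transcript arrays, as the labels' protocols state. Linear intensity values of 28853 probe sets were deposited by the authors. Their background correction and normalization were not given in the sources used here, and sorted values of the arrays lay within 0.24 of each other (log2). Symbols came from the platform table (21789 probe sets with 1 gene, 1621 with several, 5443 with none) and were updated through Entrez Gene numbers for 21698. The brightest probe set of a gene was used. Values were analysed as log2(intensity + 1). Pairs of arrays were compared by a 2-fold threshold without a test, and 2 ESC with 3 MEF arrays by limma (lmFit, eBayes, Benjamini-Hochberg over all genes, 3 residual degrees of freedom), which was tested on simulated data. The labels do not say that samples came from separate cultures, so p-values measure only the spread between these arrays.

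All macrophage genes could be named, and up to 4 genes of each other list per comparison, the most different among those called or otherwise the brightest. Outside this rule, Pla2g7 was named as the gene called lower in its list. Cd163, Marco and Lyve1 were named after their values were seen. The genes and lists were chosen with earlier results of these data known. Alternatives were other floors, quantile normalization, centring on array medians, mean probe sets, a pseudocount of 16, a 3-fold threshold, filters, an intensity trend with a robust prior, and leaving out each array. Python 3.11.15, numpy 2.4.6, pandas 2.3.3, matplotlib 3.10.9, R 4.3.3 and limma 3.58.1 were used.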

Additional observations from a re-analysis of the deposited data

How the results depend on the processing

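Of 136 alternative values of 20 summaries, 118 kept their direction and stayed within 1.5 times the value given. Part of these could not move, so the count does not measure robustness. Each macrophage gene had 1 probe set, so mean probe sets left pair differences unchanged. Median differences use neither a floor nor a fold threshold. A count of 0 that stayed at 0 was scored as unmoved. No difference of a single gene that was called turned its direction under any alternative run. With the floor at the 75th percentile, 15 macrophage genes were called higher on the 4n 2i MEF array against the control array, 15 against the 2n array and 15 against both, and 0 between the ESC arrays, since fewer genes reach that floor. A 3-fold threshold also left 0 between the ESC arrays. The median difference of 2i ESCs minus S ESCs became -0.0398 with quantile normalization and -0.0287 with arrays centred on their medians. Counted against the median of probe sets of 1 gene, 3 macrophage genes lay above it on the S ESC array and 3 on the control MEF array. In limma, testing only genes that reached a median on some array gave 1 macrophage gene higher in ESCs (Laptm5) and 2 lower (Cd53 and Lyz2), and leaving out genes identical on 2 or more MEF arrays also gave 1 and 2. Leaving out each array in turn gave 0 to 2 higher and 0 to 3 lower, the most without the 4n 2i MEF array; without the 2i ESC array the gene called was Cd14 in place of Cd53. With 1 ESC array left, it is assumed to vary like the MEF arrays. Over single macrophage genes, 1534 alternative values kept their call or lack of one, some of them under settings that could not change it. A call was lost in 36 and gained in 11. No paired analysis was possible because each group had 1 array. Values under an array's median hold an unknown part of background, and 7 macrophage genes lay there on every array.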

Other observations

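Differences of at least 8-fold on the 4n 2i MEF array lay in listed and in other genes. Across all genes, 23 were at least 8-fold above both other MEF arrays with the 4n array at or above its median, and 13 of them were macrophage genes of the list. These were 56.5% of the 23 and 35.1% of the 37. The other 10, chosen after their values were seen, included further genes known from macrophages. The chemokine Ccl3 had 2287 units on the 4n array, against 108.5 (2n) and 106.1 (control). The Toll-like receptor homologue Cd180, the partner of Ly86, had 782.1 against 87.4 and 86.1, and the inhibitory receptor genes Lilrb4a and Lilr4b had 803.5 and 553.2 units on the 4n array. The lipoprotein gene Apoe had 7542 units on the 4n array, against 938.6 (2n) and 920.8 (control). Apoe was brighter still on the ESC arrays, at 10101 units (2i) and 8269 units (S).

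The remaining genes of the 10 included genes of connective tissue. The elastin gene Eln had 4189 units on the 4n array, against 263.4 (2n) and 260.7 (control). Mgp, an inhibitor of calcification, had 7378 units against 644.0 and 214.2. Olfml1, Prss35 and C1s1, a protease of classical complement, were between 9.34-fold and 12.1-fold higher in each comparison. The lysozyme genes Lyz2 and Lyz1 are near copies, and Lyz1 had 3573 units on the 4n array, against 491.2 (2n) and 766.2 (control). Signal from one on the probe set of the other was not tested.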
